A study of Homo sapiens with 18 samples.

Results

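The genes described here are 10 genes of bile acid synthesis, conjugation, transport and feedback: CYP7A1, CYP8B1, CYP27A1, BAAT, NR0B2, FGF19, SLC51A, SLC51B, ABCB11 and ABCB4. They were chosen by name, with earlier results of these data known, from 36684 gene symbols in the deposited count table. Of the 10, 7 had enough counts for a test, out of 14557 genes tested, and CYP7A1, CYP8B1 and ABCB11 did not. Polyadenylated RNA was sequenced from Hep3B, a human hepatoma line, in 6 groups of 3 biological replicates. Con was the control, and Model was the steatosis model made with free fatty acids (FFA). FUCO-0.5, FUCO-1 and FUCO-2 received FFA with fucoxanthin, a carotenoid of brown algae, at 0.5, 1 or 2 µM. RES received FFA with Resmetirom, an agonist of thyroid hormone receptor beta, which served as the positive control. All groups share 1 cell line, and the FFA concentration, the treatment times and the Resmetirom dose of these libraries are not given in the sources used here.

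Hepatocytes make bile acids from cholesterol. CYP7A1 starts the classical route, CYP8B1 sets the share of cholic acid, CYP27A1 starts the alternative route and oxidises the side chain, and BAAT joins the finished acid to glycine or taurine. Bile acids activate the nuclear receptor FXR (NR1H4), which induces NR0B2, a receptor without a DNA-binding domain that represses bile acid synthesis, FGF19, a hormone that signals to hepatocytes, and the export proteins of both cell faces: SLC51A with SLC51B (the subunits of OSTα/β) on the blood side, and ABCB11 (the bile salt export pump) and ABCB4 (a phospholipid floppase) on the bile side.

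Libraries held 16916688 to 23083498 counts, and 3 counts, taken as the detection floor, corresponded to 0.121 to 0.179 CPM, the number of counts of a gene relative to the library's total after TMM scaling. The RES libraries stood apart: their median correlation with libraries of other groups was 0.957 to 0.959, against at least 0.9815 for every other library. The summed level of 7 hepatocyte markers, none of them at 0, was 62140 to 70060 CPM in Con, 51490 to 51990 in Model, 43050 to 54140 in FUCO-0.5, 45840 to 48250 in FUCO-1, 34720 to 39040 in FUCO-2 and 14780 to 15150 in RES. Of the markers of other cell types, ACTA2 (stellate cells), CD163 (macrophages) and CDH5 (endothelium) had 0 counts in all libraries. The sum of 4 macrophage markers was 2.87 to 3.70 CPM in Con and 12.5 to 18.03 CPM in Model, nearly all of it LYZ. PECAM1, an endothelial marker, rose from a mean of 0.364 CPM in Con to 1.26 CPM in Model (log2 fold change 1.78, edgeR adjusted p = 0.00488). It had 13, 3 and 3 counts in Con, close to the floor. The sum of 5 cholangiocyte markers was 742 to 782.2 CPM in RES and 782 to 931 CPM in the other groups. Of its 4 tested members, KRT19 fell in RES against Model by 1.25 on the log2 scale (edgeR adjusted p = 2.23e-09). CFTR fell by 1.92 (adjusted p = 0.0038) from a mean of 0.602 CPM, with 6, 3 and 1 counts in RES, close to the floor. EPCAM (-0.01, adjusted p = 0.920) and SOX9 (0.08, adjusted p = 0.650) did not pass. In RES the sum of 4 stellate cell markers was 2.94 to 3.51 CPM, against 10.2 to 21.0 CPM in the other groups. Against Model, PDGFRB fell by 3.39 on the log2 scale (edgeR adjusted p = 6.4e-14), while COL1A1 rose by 0.62 (adjusted p = 0.0489). The sum of 5 enterocyte markers was 315 to 358 CPM in RES, against 555 to 693 CPM in the other groups, nearly all of it VIL1. In bulk RNA, fewer cells that express a gene and less of its RNA per cell cannot be told apart.

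CYP7A1, CYP8B1 and ABCB11 were below the detection floor in every library. CYP7A1, the rate-limiting enzyme of bile acid synthesis, had 3 counts in all 18 libraries together, 1 each in Model replicate 1, FUCO-1 replicate 2 and RES replicate 2. CYP8B1 had 4 counts in 3 libraries, and ABCB11 had 7 counts in 6 libraries. Out of 336350981 counts in all, the exact Poisson 95% intervals of these totals were 0.619 to 8.77 counts for CYP7A1, 1.09 to 10.2 for CYP8B1 and 2.81 to 14.4 for ABCB11, which cover counting error only. No library held more than 2 counts of any of the 3 genes, so a difference between groups was not detectable at this depth, and no fold is given.

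Among the 7 tested members, levels per kilobase of exon in Con spanned from 115 CPM per kb for NR0B2 to 0.518 CPM per kb for SLC51A. The length used is that of the merged exons of all annotated transcripts of a gene, and the order depends on it. CYP27A1 followed NR0B2 at 24.4 CPM per kb, and FGF19, SLC51B and BAAT lay close together at 4.75, 4.32 and 3.90 CPM per kb. ABCB4 was at 1.99 CPM per kb. Across the 6 groups, 6 of the 7 differed by edgeR's quasi-likelihood test (67% of all tested genes did), with adjusted p from 3.25e-10 for NR0B2 to 0.00113 for SLC51A. FGF19 was the other member, at an adjusted p of 0.770.

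**Figure D1:**
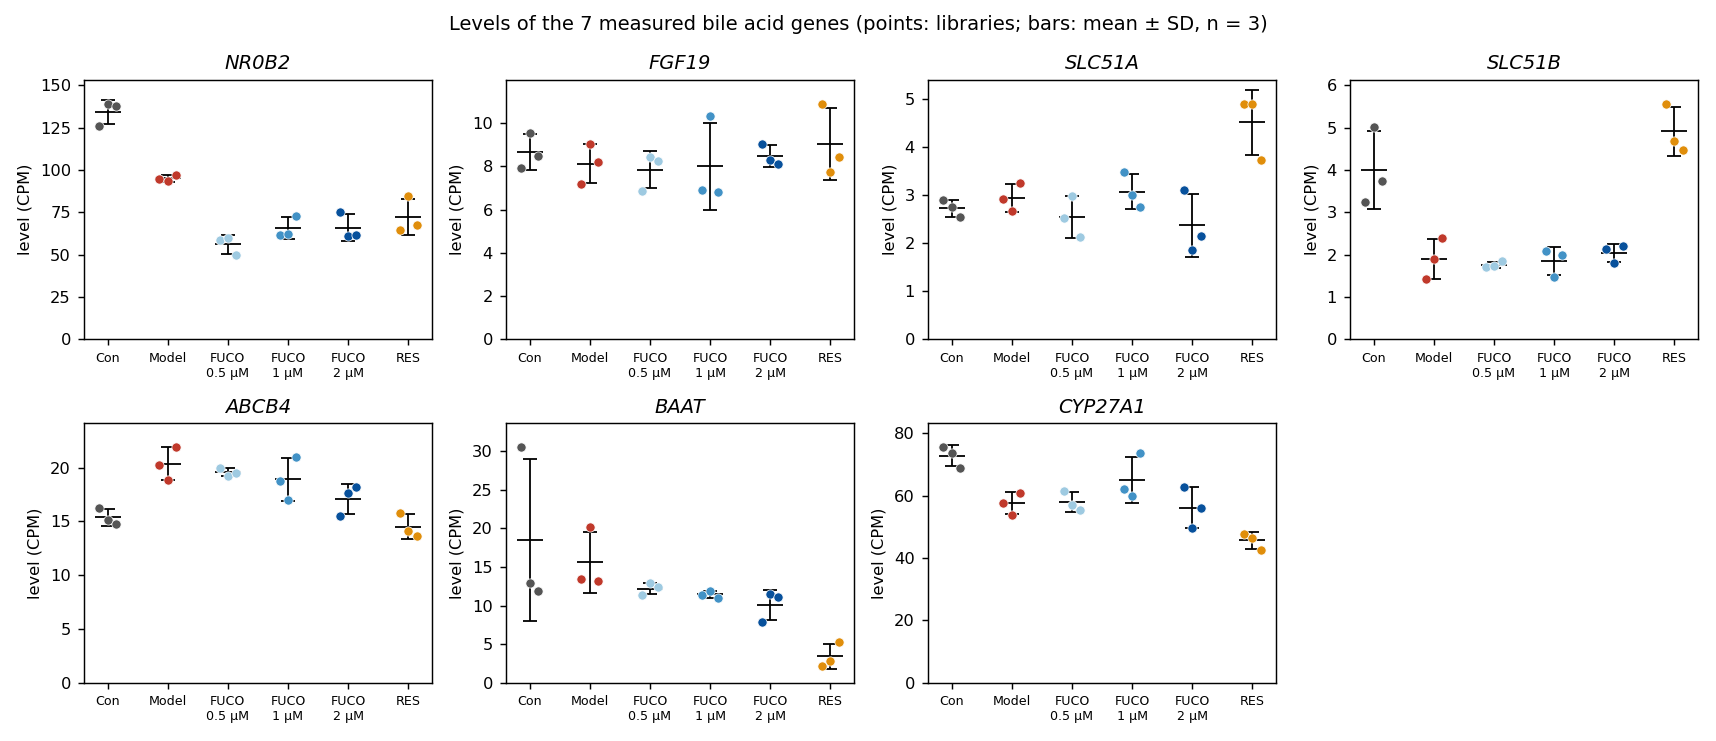
Levels of the 7 tested members in each of the 18 libraries, in CPM on linear axes that start at 0, by group. Points are libraries and bars are the mean ± SD of each group (n = 3). NR0B2 lay highest in Con and lowest in FUCO-0.5, SLC51B was high in Con and RES, and BAAT was lowest in RES, at 2.22 to 5.23 CPM.

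The first comparison asked what FFA changed. NR0B2, SLC51B and CYP27A1 fell in Model against Con, and ABCB4 rose. These 4 of 7 members passed an adjusted p of 0.05 in a comparison in which 17.6% of all tested genes did. For each of the 4 the groups did not overlap, as was the case for 35.7% of tested genes. SLC51B also passed the study's threshold for a differentially expressed gene (DEG), which adds an absolute log2 fold change over 1 and which 1.95% of tested genes met. The hepatocyte marker sum, most of it ALB (a mean of 33912 CPM in Model), was lower in Model too. By edgeR 4 of its 7 markers fell (ALB, AFP, TF and APOB), while APOA1 (-0.25), SERPINA1 (0.23) and TTR (0.23) did not pass. Their part in the falls was not tested.

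The level of NR0B2, the FXR-induced repressor on chromosome 1 (26911489 to 26913975, GRCh38.p14), was 126, 139 and 138 CPM in Con and 94.7, 93.3 and 97.2 CPM in Model. Every Model library lay below every Con library, and the means were 134 ± 7.13 and 95.1 ± 1.96 CPM (SD, n = 3 each). The log2 fold change was -0.50 (SE 0.0975, edgeR adjusted p = 0.000774).

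SLC51B, the β subunit of the bile acid exporter (chromosome 15, 65045387 to 65053397), was at 3.24, 5.02 and 3.73 CPM in Con and at 1.43, 1.89 and 2.38 CPM in Model. These levels rest on 56, 84 and 69 counts in Con and 26, 34 and 44 in Model, and the groups did not overlap. Its RNA fell to 47.6% of the Con mean, a log2 fold change of -1.07 (SE 0.206, edgeR adjusted p = 0.000682). SLC51A, its partner (chromosome 3, 196216534 to 196233427), overlapped between the groups, at 2.54 to 2.89 CPM in Con and 2.67 to 3.25 CPM in Model, with a log2 fold change of 0.11 (95% interval -0.30 to 0.52, edgeR adjusted p = 0.752).

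CYP27A1, the sterol 27-hydroxylase (chromosome 2, 218782147 to 218815293), was at 75.7, 73.7 and 69.1 CPM in Con and at 57.8, 53.9 and 61.0 CPM in Model. All Model libraries were lower, with a log2 fold change of -0.34 (SE 0.0889, edgeR adjusted p = 0.00940). That call was lost without Model replicate 2, at -0.29 and an adjusted p of 0.0594. ABCB4, the phospholipid floppase of the bile canaliculus (chromosome 7, 87365896 to 87476027), was at 16.3, 15.2 and 14.8 CPM in Con and at 20.3, 18.9 and 21.9 CPM in Model. It was the member that rose, by 0.40 on the log2 scale (SE 0.0992, edgeR adjusted p = 0.00584), with no overlap between the groups.

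BAAT, the conjugating enzyme (chromosome 9, 101360417 to 101385006), did not pass the test. Con replicate 1 stood apart at 30.5 CPM, above the other Con libraries at 12.96 and 11.8 CPM, and Model was at 13.4, 20.2 and 13.2 CPM. The log2 fold change was -0.24 (edgeR adjusted p = 0.573), and 0.33 (adjusted p = 0.264) without Con replicate 1. FGF19 (chromosome 11, 69698238 to 69704022) was at 7.92, 9.55 and 8.49 CPM in Con and 7.18, 9.01 and 8.18 CPM in Model, a log2 fold change of -0.09 (95% interval -0.42 to 0.24).

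The next comparisons asked what fucoxanthin changed on top of FFA. At each dose NR0B2 was the member that fell, 1 of 7, and no member rose by edgeR's test. Of all tested genes, 1.45% passed at 0.5 µM, 3.21% at 1 µM and 20.5% at 2 µM, and 1.16%, 2.32% and 9.71% fell. NR0B2 did not reach the DEG threshold at any dose, which 0.268%, 0.495% and 1.6% of tested genes met.

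NR0B2 was at 58.9, 59.6 and 49.7 CPM in FUCO-0.5, at 61.7, 62.0 and 73.1 CPM in FUCO-1 and at 74.9, 61.1 and 61.6 CPM in FUCO-2. All 9 libraries with fucoxanthin lay below the lowest Model library at 93.3 CPM. FUCO-1 and FUCO-2 overlapped with each other, and all FUCO-0.5 libraries lay below both. Against Model the log2 fold change was -0.76 at 0.5 µM (SE 0.0999, edgeR adjusted p = 2.80e-05), -0.54 at 1 µM (SE 0.0991, adjusted p = 0.00174) and -0.53 at 2 µM (SE 0.0992, adjusted p = 0.000498). The means were 59.0%, 69.0% and 69.3% of that of Model. Between doses no difference passed the adjusted test. Against 0.5 µM the log2 fold change was 0.23 at 1 µM (unadjusted 95% interval 0.02 to 0.43, edgeR adjusted p = 0.426) and 0.23 at 2 µM (0.02 to 0.44, adjusted p = 0.126), and between 1 and 2 µM it was 0.01 (-0.20 to 0.21, adjusted p = 0.980). The FFA comparison and the fucoxanthin comparisons share the Model libraries. The hepatocyte marker sum of FUCO-0.5, where NR0B2 was lowest, overlapped with that of Model, and those of FUCO-1 and FUCO-2 lay below it. Taken singly, 0 of the 7 markers passed edgeR's test against Model at 0.5 or 1 µM, and all 7 fell at 2 µM. The part of the markers in the result was not tested.

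BAAT was at 11.4, 12.9 and 12.4 CPM in FUCO-0.5, at 11.4, 11.9 and 11.02 CPM in FUCO-1 and at 7.89, 11.4 and 11.1 CPM in FUCO-2, each below the lowest Model library at 13.2 CPM. Groups without overlap made up 19.6%, 23.3% and 36.3% of all tested genes at the 3 doses. The log2 fold changes of -0.35, -0.45 and -0.62 did not pass edgeR's test (adjusted p = 0.681, 0.421 and 0.103). At 2 µM the unadjusted 95% interval was -1.17 to -0.07, and without Con replicate 1 the adjusted p was 0.0159.

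SLC51B, which fell with FFA, did not differ detectably between any fucoxanthin dose and Model. It was at 1.70, 1.73 and 1.84 CPM in FUCO-0.5, at 2.08, 1.48 and 2.00 CPM in FUCO-1 and at 2.13, 1.81 and 2.20 CPM in FUCO-2, all within the Model range. The log2 fold changes against Model were -0.11 (95% interval -0.59 to 0.36), -0.04 (-0.51 to 0.44) and 0.10 (-0.37 to 0.57). ABCB4 at 2 µM lay below Model in all libraries, at 15.5, 17.6 and 18.2 CPM, with a log2 fold change of -0.25 that missed the threshold (SE 0.0982, edgeR adjusted p = 0.0717). For CYP27A1, SLC51A and FGF19 the 3 doses gave log2 fold changes between -0.32 and 0.18, and none passed.

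**Figure D2:**
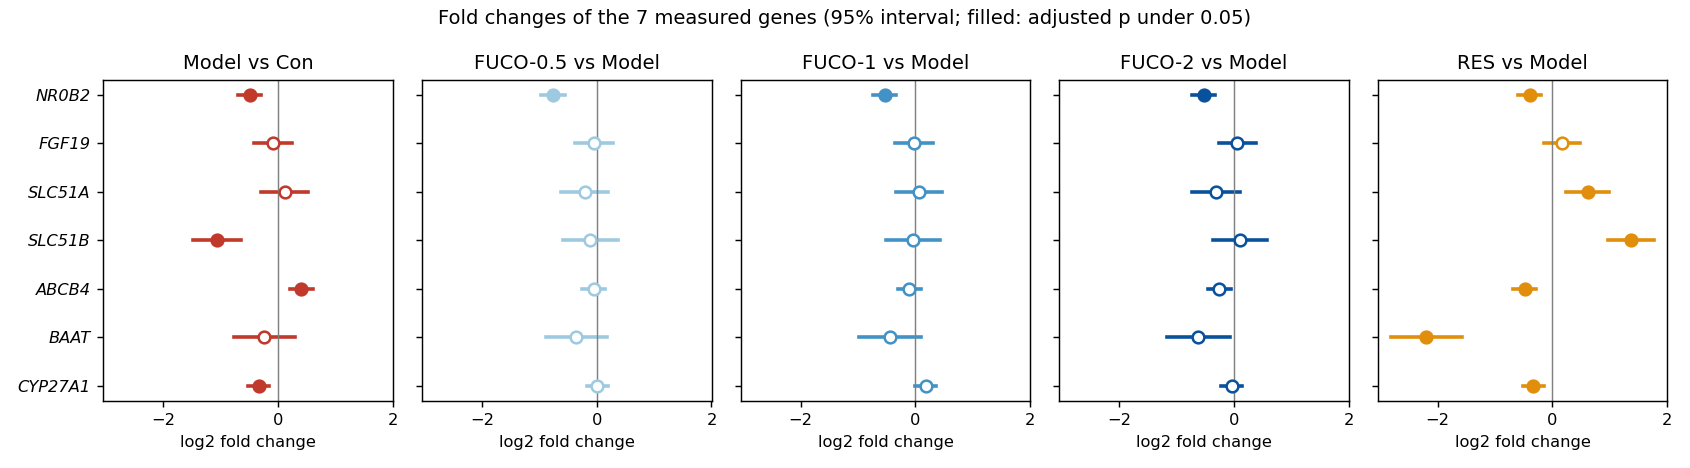
Log2 fold changes of the 7 tested members in each comparison with Model, and of Model with Con. Points are edgeR estimates, lines are 95% intervals, and filled points passed an adjusted p of 0.05. With fucoxanthin the filled points are those of NR0B2, while with RES 6 of 7 members are filled, from -2.20 for BAAT to 1.37 for SLC51B.

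Resmetirom moved most of the members. SLC51B and SLC51A rose against Model, and BAAT, ABCB4, NR0B2 and CYP27A1 fell, so 6 of 7 passed, in a comparison in which 49.4% of all tested genes passed. BAAT and SLC51B met the DEG threshold, as did 9.91% of tested genes. All 6 called members were without overlap between the groups, as were 64% of tested genes. Beside these values stands the hepatocyte marker sum of 14780 to 15150 CPM in RES against 51490 to 51990 CPM in Model. By edgeR all 7 markers fell, but by unlike amounts. The log2 fold change was -4.72 for AFP and -2.17 for ALB, against -0.64 for APOB and -0.49 for SERPINA1. The part of the markers in the falls of BAAT, ABCB4, NR0B2 and CYP27A1 was not tested.

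BAAT was at 2.22, 2.80 and 5.23 CPM in RES, from 55, 52 and 112 counts. The RES mean was 21.9% of the Model mean, 4.59-fold lower, with a log2 fold change of -2.20 (SE 0.300, edgeR adjusted p = 1.51e-06). All RES libraries lay below all other libraries of the series, and RES differed from FUCO-2, the next group in the order, by an adjusted p of 0.000189.

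The exporter subunits rose by different amounts. SLC51B was at 5.57, 4.68 and 4.48 CPM in RES, from 138, 87 and 96 counts, all above Model, and its log2 fold change was 1.37 (SE 0.196, edgeR adjusted p = 2.97e-06), or 2.59-fold. SLC51A was at 4.89, 4.90 and 3.73 CPM, from 121, 91 and 80 counts, and above all other libraries of the series. It rose by 0.61 on the log2 scale against Model (SE 0.180, edgeR adjusted p = 0.00660).

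ABCB4 was at 15.8, 14.2 and 13.6 CPM in RES, below all Model libraries and overlapping with Con, with a log2 fold change of -0.49 against Model (SE 0.0980, edgeR adjusted p = 0.000227). NR0B2 was at 64.6, 84.4 and 67.7 CPM, between Model and the fucoxanthin groups in its mean, with -0.40 (SE 0.0984, adjusted p = 0.00163). Its RES level overlapped with FUCO-1 and FUCO-2 and did not differ detectably from them (edgeR adjusted p = 0.253 and 0.286). It lay above FUCO-0.5 (adjusted p = 0.00401). CYP27A1 was at 47.9, 46.6 and 42.6 CPM, the lowest levels of the series, with -0.33 (SE 0.0898, adjusted p = 0.00342). FGF19 did not pass, at 10.9, 7.75 and 8.44 CPM and a log2 fold change of 0.16 (95% interval -0.16 to 0.48).

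Set against Con, the treated groups kept the lower NR0B2 level. Its log2 fold change was -1.26, -1.03 and -1.03 with 0.5, 1 and 2 µM fucoxanthin and -0.90 with Resmetirom, with edgeR adjusted p from 2.72e-09 to 5.26e-08. All 12 treated libraries lay below all Con libraries. SLC51B stayed below Con at each fucoxanthin dose, at -1.18, -1.10 and -0.96 (adjusted p = 0.000198, 0.000471 and 0.00107). With Resmetirom its level of 4.91 ± 0.581 CPM overlapped with the Con level of 3.995 ± 0.918 CPM (SD, n = 3 each), a log2 fold change of 0.31 (95% interval -0.06 to 0.67, adjusted p = 0.142).

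CYP27A1 was below Con at 0.5 µM (-0.33, adjusted p = 0.00987), at 2 µM (-0.37, adjusted p = 0.00308) and with Resmetirom (-0.67, adjusted p = 7.01e-07), and at 1 µM the value was -0.16 (adjusted p = 0.226). ABCB4 was above Con at 0.5 and 1 µM, by 0.35 and 0.30 on the log2 scale (adjusted p = 0.0137 and 0.0394). The first call was lost without Con replicate 3 (adjusted p = 0.0633), and the second without Con replicate 2 or 3, or without FUCO-1 replicate 1 or 3, at adjusted p of up to 0.167. The second was also lost without a filter on low counts (adjusted p = 0.0678) and with edgeR on the 2 groups alone (adjusted p = 0.0895). BAAT was below Con at 2 µM by edgeR (-0.86, adjusted p = 0.0190), but without Con replicate 1 the log2 fold change was -0.28 (adjusted p = 0.342). The call was also lost without FUCO-2 replicate 1 (-0.71), with DESeq2 (adjusted p = 0.0635) and with edgeR on the 2 groups alone (adjusted p = 0.0798). Against Con, 4, 3, 4 and 4 of the 7 members passed in FUCO-0.5, FUCO-1, FUCO-2 and RES, where 21.9%, 18.3%, 24.8% and 57.3% of all tested genes did. The DEG threshold against Con was met by NR0B2 and SLC51B in FUCO-0.5 and FUCO-1, by NR0B2 in FUCO-2 and by BAAT in RES, where 2.38%, 2.34%, 3.17% and 13.3% of tested genes met it.

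The balance of the exporter subunits moved with these changes. The ratio of SLC51A to SLC51B per kilobase of exon was 0.157, 0.0961 and 0.120 in Con and 0.358, 0.248 and 0.239 in Model. It ran from 0.202 to 0.303 in FUCO-0.5, from 0.241 to 0.358 in FUCO-1 and from 0.171 to 0.256 in FUCO-2, and was 0.154, 0.184 and 0.146 in RES. Every library with FFA alone lay above every Con and RES library, and Con and RES overlapped. The ratio was not tested, since it restates the levels above, and its absolute size depends on the exon lengths used.

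The promoters of both subunits are shown because SLC51A and SLC51B rose together with Resmetirom, while SLC51B alone of the pair fell with FFA. The sequences are from RefSeq (GRCh38.p14), from 250 bases before to 50 bases after the start of transcription, both on the plus strand. Capitals mark a match to the inverted repeat AGGTCANTGACCT with at most 2 mismatches (IR-1, the layout that FXR with RXR prefers).
SLC51A promoter, chr3:196216284-196216583: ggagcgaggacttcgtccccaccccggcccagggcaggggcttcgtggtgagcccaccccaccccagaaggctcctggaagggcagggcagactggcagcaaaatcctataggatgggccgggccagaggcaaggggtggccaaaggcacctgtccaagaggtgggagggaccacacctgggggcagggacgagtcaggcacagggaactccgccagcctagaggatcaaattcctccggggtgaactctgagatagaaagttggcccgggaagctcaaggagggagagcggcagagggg
SLC51B promoter, chr15:65045137-65045436: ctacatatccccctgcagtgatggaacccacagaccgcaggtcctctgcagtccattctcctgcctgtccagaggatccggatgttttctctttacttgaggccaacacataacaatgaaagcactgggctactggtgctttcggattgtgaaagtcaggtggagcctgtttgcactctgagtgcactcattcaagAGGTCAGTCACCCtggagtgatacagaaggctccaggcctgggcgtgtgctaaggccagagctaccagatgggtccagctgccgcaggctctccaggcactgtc

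The SLC51B match lies 54 to 42 bases before the start, and it holds an exact copy of AGGTCA, a hexamer that 13.8% of 35116 promoters of this length hold on either strand. The inverted repeat was in 1.12% of those promoters. Promoters of 5 members were searched (CYP27A1, SLC51A, SLC51B, ABCB11 and BAAT). Those of NR0B2, FGF19, ABCB4 and CYP8B1 were not in the set of promoters used, and that of CYP7A1 was not analysed here. Among the 5, ABCB11 had the only other match, ATGTCACTGAACT, 96 to 84 bases before its start. One of the BAAT entries held the hexamer alone, as TGACCT, 41 to 36 bases before its start. Neither the direct repeats AGGTCANAGGTCA (DR-1) and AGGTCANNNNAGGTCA (DR-4, the layout of thyroid hormone receptors), at most 2 mismatches each, nor the exact LRH-1 site CAAGGTCA matched in any of these 5 members on either strand, and they matched in 2.97%, 2.34% and 1.28% of all promoters. The AGGTCA hexamer is part of each of these motifs. A match describes letters and not binding.

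Some of these genes share sequence with neighbours. In GENCODE v44, 61 exon bases of SLC51B (6.6%) overlap RASL12 on the other strand, and 389 exon bases of SLC51A (7.39%) overlap PCYT1A. RASL12 moved opposite to SLC51B, by 1.49 in Model against Con (edgeR adjusted p = 0.00118) and by -1.01 in RES against Model (adjusted p = 0.00332). PCYT1A rose by 0.32 with RES (adjusted p = 0.000735), the direction of SLC51A, and its part in the SLC51A count was not tested. NR0B2 lies within the span of NUDC but shares no exon base with it. ABCB4 has close paralogs in ABCB1 and ABCB11, and 453 exon bases of BAAT (9.57%) overlap a processed pseudogene, so reads of these genes could have been split in the counting.

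The other genes of the pathway were 49 regulators, enzymes, transporters and FXR targets, of which 46 were tested. In Model against Con 4 of them rose and 9 fell, with a median log2 fold change of -0.05 against 0.00 over all tested genes. In this comparison 17.6% of all tested genes passed. Among the regulators, NR1H4, which encodes FXR itself, was at 32.9, 39.0 and 36.02 CPM in Con and 23.6, 20.8 and 24.2 CPM in Model, a log2 fold change of -0.65 (SE 0.0986, edgeR adjusted p = 4.89e-05). KLB, the co-receptor of FGF19, fell by 0.66 (adjusted p = 0.000381), with Con replicate 1 at 64.4 CPM just above Model and the other Con libraries at 116 and 98.8 CPM. FGFR4, the receptor itself, was at -0.26 with an adjusted p of 0.0485, a call lost in 12 of 18 fits that left out 1 library.

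KDM1A, a histone demethylase, and PROX1, a corepressor of bile acid synthesis, rose by 0.26 and 0.30, and GPBAR1, the membrane bile acid receptor, rose from a mean of 0.537 CPM in Con to 1.24 CPM in Model, with groups that overlapped. Of the transporters, the uptake carriers SLCO1B1 and SLCO1B3 fell by 1.65 and 0.87 on the log2 scale. Of 11 other FXR targets, C3 rose by 0.90, from 1800 to 1885 CPM in Con to 3257 to 3536 CPM in Model, while SULT2A1, which sulfates steroids and bile acids, fell by 0.70 and FETUB, FGB and PLTP fell by 0.77, 0.34 and 0.39. The calls of KDM1A, GPBAR1, SLCO1B3, FETUB, FGB and PLTP were each lost in 3 to 5 of 18 fits that left out 1 library. That of PLTP was also lost with DESeq2 (adjusted p = 0.0568). By edgeR it was lost without a filter on low counts (adjusted p = 0.0660) and without the RES group (0.0511). The GPBAR1 call was also lost with edgeR on the 2 groups alone (adjusted p = 0.0636). No enzyme on the list of 13 tested passed.

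With fucoxanthin few of the other genes passed at the lower doses, where 1.45% (0.5 µM) and 3.21% (1 µM) of all tested genes passed. At 0.5 µM, 2 of 46 fell and none rose by edgeR, namely the fatty acid binding protein FABP1 (-0.42, adjusted p = 0.0479) and the repressor MAFG (-0.37, adjusted p = 0.0209), and their calls were lost in 11 and 4 of 18 fits that left out 1 library. At 1 µM, 3 of 46 fell, the FXR targets FGB (-0.77), KNG1 (-0.51) and VLDLR (-0.44), and the call of VLDLR was lost in 6 of those fits. At 2 µM, 5 rose and 7 fell, in a comparison in which 20.5% of all tested genes passed.

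FGB, the fibrinogen beta chain, was at 110 to 112 CPM in Model, at 59.7, 65.9 and 70.6 CPM in FUCO-1 and at 46.6, 36.1 and 49.5 CPM in FUCO-2, and fell by 1.34 on the log2 scale at 2 µM (SE 0.114, edgeR adjusted p = 1.48e-08). KNG1, the kininogen gene, fell by 0.99, UGT2B4, which glucuronidates bile acids, by 0.62, FABP1 by 0.73 and AKR1D1, the 5β-reductase of bile acid synthesis, by 0.96. The regulators NR5A2 (LRH-1, an activator of CYP7A1) and PROX1 fell by 0.24 and 0.23, while MAFG rose by 0.30. The basolateral exporters ABCC3 and ABCC4 rose by 0.49 and 0.48, and the canalicular ABCC2 by 0.38. The calls of NR5A2, PROX1, MAFG and ABCC2 were each lost in 2 to 5 of 18 fits that left out 1 library. The hepatocyte marker sum was 34720 to 39040 CPM in FUCO-2, below the 51490 to 51990 CPM of Model, and its part in the falls was not tested.

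**Figure D3:**
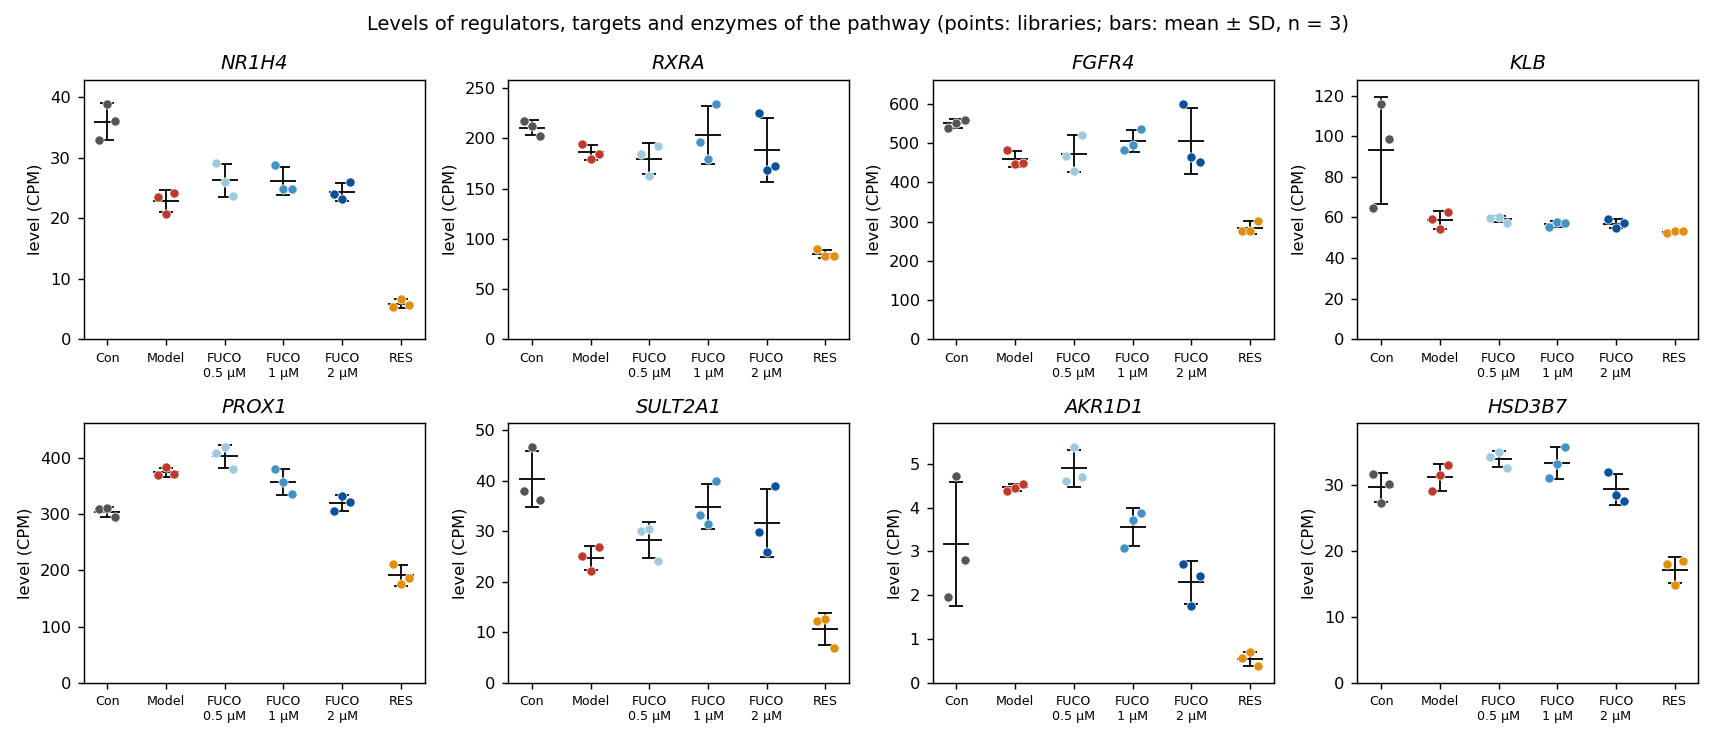
Levels of 8 genes of the pathway (NR1H4, RXRA, FGFR4, KLB, PROX1, SULT2A1, AKR1D1 and HSD3B7) in each library, in CPM on linear axes that start at 0, by group. Points are libraries and bars are the mean ± SD of each group (n = 3). NR1H4 stepped down from Con to Model and again to RES, where it was at 5.41 to 6.68 CPM.

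Resmetirom moved 35 of the 46, with 10 higher and 25 lower, and a median log2 fold change of -0.40 against 0.00 over all tested genes. Of all tested genes, 49.4% passed in this comparison. Of 14 regulators, 2 rose and 8 fell. NR1H4 was at 5.41, 6.68 and 5.69 CPM, 3.88-fold below Model (log2 fold change -1.96, SE 0.114, edgeR adjusted p = 6.82e-13), with no overlap with any other group. RXRA, the partner of FXR, fell by 1.13 (adjusted p = 1.60e-09), PROX1 by 0.97, FGFR4 by 0.69, NR5A2 by 0.55, HNF4A by 0.40 and KDM1A by 0.23. GPBAR1 fell by 2.59 and VDR, the vitamin D receptor, rose by 1.69, both from mean levels at or below 1.24 CPM. GPBAR1 had 4, 2 and 7 counts in RES, and VDR had 6, 6 and 1 in Model, close to the floor. SIRT1 rose by 0.30.

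Among 13 tested synthesis enzymes, 4 rose and 5 fell. AKR1D1 fell by 3.03, from 4.39 to 4.55 CPM in Model to 0.373 to 0.700 CPM. The other falls were those of ACOX2 (-0.98), HSD3B7 (-0.86), SLC27A5 (-0.52) and SCP2 (-0.45), which act in ring modification, side chain shortening and activation. CYP39A1 (0.92) and CYP7B1 (0.27), oxysterol hydroxylases, rose, as did SLC27A2 (0.78) and ACOT8 (0.42).

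Of 8 transporters, ABCC4 rose by 1.27 and SLCO1B3 (-3.22), FABP1 (-1.44), ABCC2 (-0.35) and ABCC3 (-0.31) fell. SLCO1B3 had 41, 49 and 39 counts in Model and 6, 8 and 2 in RES, close to the floor. SLCO1B1 also passed, with 11, 4 and 8 counts in Model and 3, 2 and 1 counts in RES, which is at the floor. Of 11 FXR targets, VLDLR (1.20), FGB (0.42) and INSIG2 (0.35) rose, and C3 (-1.46), FETUB (-1.29), SULT2A1 (-1.23), KNG1 (-1.08), PLTP (-1.06), APOC2 (-0.65) and UGT2B4 (-0.54) fell. The calls of SIRT1, KDM1A, CYP7B1, SLCO1B1, ABCC2 and APOC2 were each lost in 1 to 3 of 18 fits that left out 1 library. The members among the FXR targets went both ways with Resmetirom, with SLC51A and SLC51B higher and NR0B2 and ABCB4 lower. The marker sum given above moved with this comparison too, and its part was not tested.

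**Figure D4:**
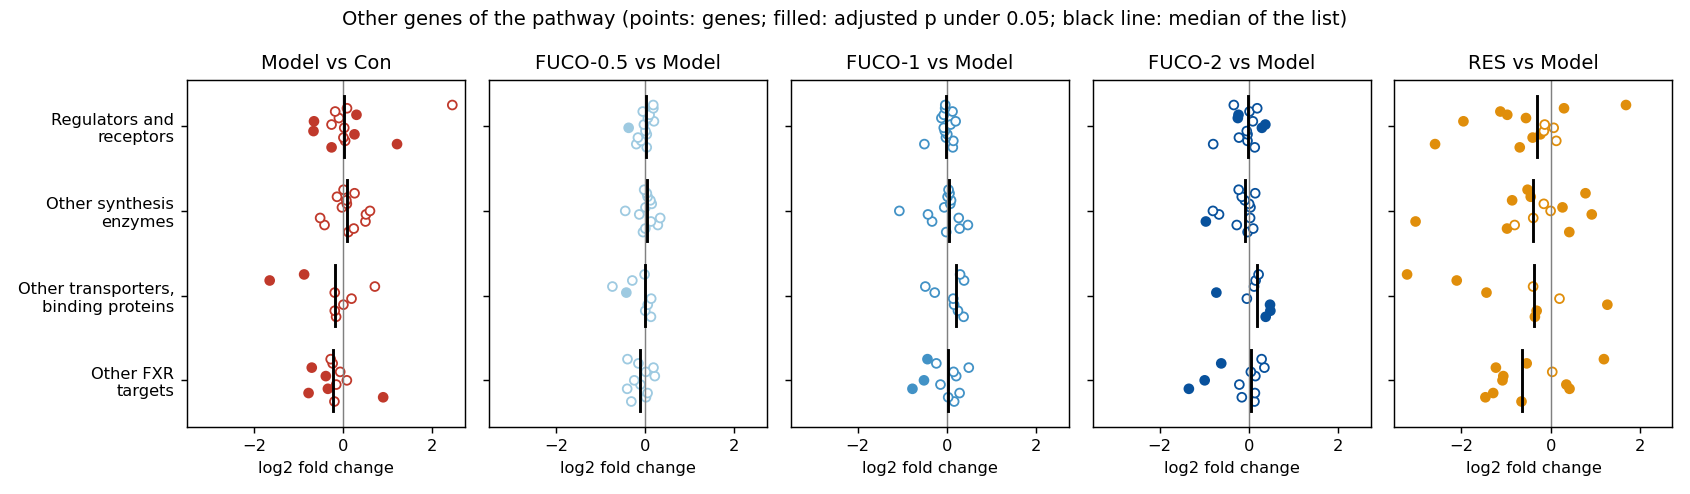
Log2 fold changes of the 46 tested pathway genes, grouped by role, for Model against Con and for each treatment against Model. Points are genes, filled where the adjusted p was under 0.05, and black lines are list medians. With RES the points reach from -3.22 for SLCO1B3, close to the floor in RES, to 1.69 for VDR, close to the floor in Model. At 0.5 µM fucoxanthin 2 genes passed, where 1.45% of all tested genes did.

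Genes with patterns most like those of the 4 most variable members were found over the 18 libraries, by the root mean square difference of centred log2 CPM among 13080 genes. NR0B2 was nearest to BHLHE40 at 0.132, PGF at 0.188 and DHCR7 at 0.214, where the median gene was at 0.486. BAAT was nearest to LIPG (0.283), ANXA13 (0.343) and PAQR9 (0.347), with a median of 0.876. SLC51B was nearest to LOC124900217 (0.296), PPARGC1A (0.302) and ST3GAL6 (0.317), with a median of 0.626. SLC51A was nearest to TMEM129 (0.164) and MAP3K4-AS1 (0.194), with a median of 0.391.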

How the data were processed

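The deposited values are raw counts per gene symbol, which the authors made with fastp (trimming), STAR (alignment, GRCh38.p14) and featureCounts. No normalization was applied. Strand use and the handling of reads with several matches are not given in the sources used here. Libraries were grouped by title, and all 18 columns were used.

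Counts were tested with edgeR 4.0.16 in R 4.3.3 (filterByExpr with a minimum count of 10 and total of 15, TMM, quasi-likelihood fit of 18 libraries with 1 term per group, prior count 0.125). P-values were adjusted by Benjamini-Hochberg over the 14557 genes tested in each comparison, and a call is an adjusted p under 0.05. The study's methods use DESeq2, run as an alternative (1.42.0); limma 3.58.1 supports edgeR. The fit was tried on simulated counts with changes planted in Model, which checks the procedure and not the calls given here. The members and the gene lists were chosen with earlier results of these data known. Named genes are the members, listed pathway genes called in at least 1 of 5 comparisons, and the 3 genes most like each of 4 members; 2 of the genes so chosen are counted but not reported by name here. Levels are CPM on TMM library sizes, exon lengths are from GENCODE v44, and positions are from RefSeq. Alternatives were RLE factors, other low-count filters, 2-group fits, DESeq2, a prior count of 2, the DEG threshold, a replicate block and leaving out each library. A fit without RES was added after the data were seen.

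Replicate numbers showed no clear pairing of libraries. Over 45 pairs of same-numbered libraries from different groups, the correlation of deviations ran from -0.356 to 0.311, and 12 exceeded 0.1. The median was 0.036, against -0.025 for pairs with different numbers. Of the 18 libraries, 10 were closest to those of their own number.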

Additional observations from a re-analysis of the deposited data

How the results depend on the processing

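The number of members called changed with the threshold on size. Under the DEG threshold 1 member remained in Model against Con, 0 with each fucoxanthin dose against Model, 2 in RES against Model, and 2, 1 and 1 in FUCO-0.5, FUCO-2 and RES against Con. Without a filter on low counts, or with edgeR on the 2 groups compared, 2 members were called in FUCO-1 and in FUCO-2 against Model. The added member was BAAT, with adjusted p of 0.0191 and 3.74e-05 without the filter and 0.0144 and 0.0189 with 2 groups. Leaving out 1 library gave 1 to 2 members in FUCO-2 against Model, the second being BAAT without Con replicate 1.

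The directions that turned when 1 library was left out all belonged to values that passed no test. Over the 18 fits the log2 fold change of BAAT in Model against Con lay between -0.48 and 0.33. For FGF19 the limits were -0.13 and 0.039 at 0.5 µM fucoxanthin, -0.25 and 0.083 at 1 µM, -0.019 and 0.14 at 2 µM, and -0.0017 and 0.26 with RES. For SLC51B they were -0.28 and 0.083, then -0.20 and 0.16, then -0.067 and 0.30 with rising dose. For CYP27A1 they were -0.031 and 0.058 at 0.5 µM and -0.12 and 0.047 at 2 µM, for ABCB4 -0.11 and 0.0011 at 0.5 µM, and for SLC51A -0.029 and 0.14 at 1 µM. The cause was not tested.

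A replicate block was tried although the numbers showed no clear pairing. It left the members called at 4 in Model against Con, at 1 with each fucoxanthin dose and at 6 with RES, and changed no other count of members. Of the calls against Model, those of NR0B2 and of the 6 members with RES stayed past the threshold in each alternative other than the DEG threshold. Low counts limit CYP7A1, CYP8B1 and ABCB11, which could not be compared.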
